A study of Bos taurus with 10 samples.

Results

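MYH11, ACTA2, TAGLN, CNN1, MYLK, LMOD1, SMTN, ACTG2, RGS5 and NOTCH3 are genes of vascular mural cells, the smooth muscle cells and pericytes that wrap blood vessels. These 10 genes were chosen by name. A gene counted as measured if a probe set, the group of short probes that reads a transcript, carried its symbol and no other in the platform annotation. This held for 8 of the 10 genes, with 9 probe sets, among 9155 named genes. ACTG2, the enteric smooth muscle actin, and NOTCH3, a Notch receptor of mural cells, were absent from the annotation and were not measured.

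The samples were longissimus dorsi, a long back muscle, from 10 Hanwoo, the native beef cattle of Korea, each on its own Affymetrix bovine array. An age of about 2 years is on the label of 1 sample, and no label gives a treatment, a genotype or a trait value. The study related expression to beef traits of these cattle. No trait was used here, so the 10 samples form 1 group, numbered as animals 1 to 10, and the question is how the genes vary between them. Separate cattle are implied by the numbering and the design text, so the p-values measure the spread between these samples.

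Smooth muscle contracts when calcium activates the myosin light chain kinase MYLK, which phosphorylates the light chains of the smooth muscle myosin MYH11 and lets it pull on filaments of the actin ACTA2. Calponin (CNN1), transgelin (TAGLN), smoothelin (SMTN) and leiomodin (LMOD1) bind or build those actin filaments. In skeletal muscle these proteins are best known from the walls of arterioles, while pericytes on capillaries are marked by RGS5. Most of this is known from mice and people.

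All levels below are log2(intensity + 16) after quantile normalization, which puts all arrays on a common distribution. A difference of 1 is a doubling, and for dim probe sets this scale understates it. The median level of all probe sets outside the controls was 6.98, and 6271 named genes with a mean above it were tested, including the 8 measured genes. The arrays differed little in overall signal, with median deposited intensities between 111 and 134. Of the markers of the labelled tissue, 7 of 8 skeletal muscle fibre genes were measured, with mean levels from 15.58 to 16.05. Of listed markers of other cells, 14 of 18 endothelial, 14 of 18 connective tissue, 8 of 13 adipocyte and 6 of 9 leukocyte genes lay above the filter. So did 6271 of 9155 named genes, and the counts alone do not show that these cells were present. Markers measured but below the filter were VWF, KDR, COL6A2, POSTN, LEP, PPARG, CEBPA and TYROBP. Animal 5 stood apart in a quality measure. Its 3' minus 5' signal of poly(A) control RNAs, added to follow the labelling, was 2.80 log2 units, where the other 9 animals had 1.09 to 1.38. The main relations between the genes are given with and without animal 5.

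The motor and its filament came first. MYH11, the smooth muscle myosin heavy chain, had a level of 9.45 in animal 2, the lowest, a median of 10.37 and 10.76 in animal 6, the highest. Animal 2 was separate, since the next animal up stood at 9.96, and the mean was 10.28 ± 0.39 (SD, n = 10). ACTA2, the smooth muscle actin, ran from 11.28 in animal 5 through a median of 12.66 to 13.30 in animal 9. Its mean was 12.55 ± 0.56 (SD, n = 10), and the range was 4.04-fold. Animal 5 lay apart at the low end, with a gap to the next lowest level, 12.18, of 0.446 of the range. The SD was 0.36 without it. In deposited intensity ACTA2 was 2485 in animal 5 and 9920 in animal 9.

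Among the genes whose products bind actin, TAGLN varied most. Transgelin, an actin cross-linking protein, had a level of 7.89 in animal 5, a median of 9.88 and 10.51 in animal 9. The next lowest level was 9.05, in animal 8, so animal 5 again lay well below the rest. The mean was 9.69 ± 0.76 (SD, n = 10), the range was 6.13-fold, and the SD was 0.45 without animal 5. CNN1, which binds actin and slows the myosin ATPase, was low and even in most animals, with 8.57 in animal 3, a median of 8.90 and 9.98 in animal 10. Animal 10 was apart at the top, with the next animal at 9.35. The CNN1 mean was 9.01 ± 0.42 (SD, n = 10).

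SMTN had the tightest range of the 8 genes, 1.73-fold. Smoothelin, an actin-binding protein of contractile smooth muscle, had levels of 10.35 in animal 2, a median of 10.78 and 11.14 in animal 9, with a mean of 10.74 ± 0.25 (SD, n = 10). LMOD1, which starts new actin filaments, went the other way from ACTA2 and TAGLN in animal 5, where it was highest at 10.12. Its lowest level was 8.68 in animal 7, its median 9.54 and its mean 9.52 ± 0.38 (SD, n = 10).

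MYLK was read by 2 probe sets. The brighter one stands for the gene and gave 9.30 in animal 8, a median of 9.97 and 10.52 in animal 4, with a mean of 9.92 ± 0.44 (SD, n = 10). The second gave 7.57 in animal 2, a median of 8.82 and 9.19 in animal 3, with a mean of 8.56 ± 0.55. Animals 2 and 8 were the lowest on both. Over the 10 animals the 2 probe sets had r = 0.74 (permutation p = 0.0119) and rho = 0.52 (permutation p = 0.136). Without animals 2 and 8, the farthest from the median, r was 0.36, so the agreement of the probe sets was weak among the remaining animals.

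RGS5, which shortens signalling by G protein-coupled receptors and marks pericytes, had a level of 9.47 in animal 1, a median of 10.18 and 11.47 in animal 6. Its mean was 10.33 ± 0.55 (SD, n = 10) and its range was 4.0-fold. Animals 1 and 6 were apart at the ends: animal 6 lay above the next animal at 10.83, and animal 1 below the next at 9.97. Unlike those of ACTA2 and TAGLN, its SD hardly moved without animal 5, at 0.56.

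**Figure D1:**
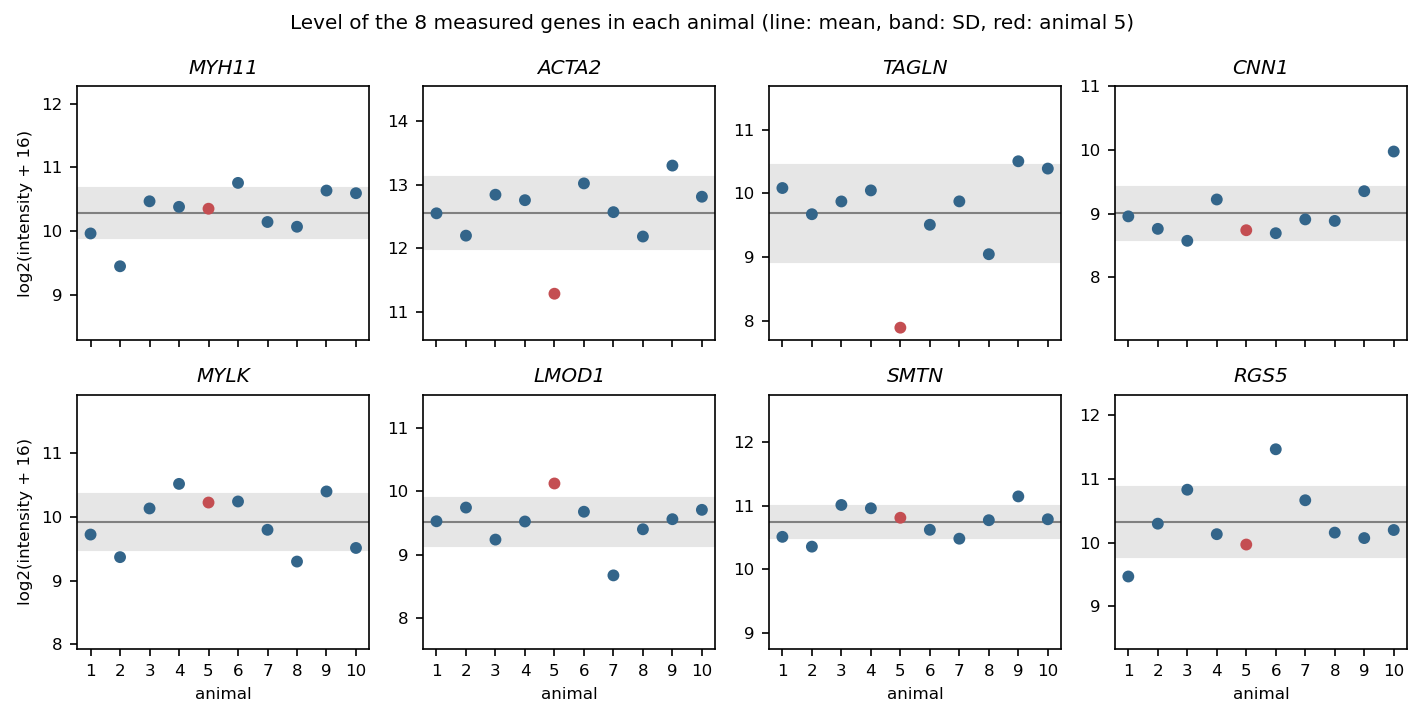
Level of each measured gene in each of the 10 animals, as log2(intensity + 16) after quantile normalization; each point is 1 array. ACTA2 at 11.28 and TAGLN at 7.89 are lowest in animal 5, LMOD1 at 10.12 is highest there, and RGS5 is highest in animal 6 at 11.47.

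Set against all tested genes, the vessel wall genes varied slightly more than the middle of the array. Their median SD was 0.43, against 0.36 over 6271 genes, and 7 of the 8 lay above that median, with SMTN the one below it. An SD above 0.5 was found for 3 of 8, ACTA2, TAGLN and RGS5, against a background of 22.1% of all tested genes. Without animal 5 the medians were 0.42 and 0.31, and RGS5 was the 1 gene of the 8 with an SD above 0.5, against 14.6%. TAGLN stood at the 95.2 percentile of all SDs, ACTA2 at 84.7, RGS5 at 83.4 and SMTN at 19.8. The percentiles of MYH11, CNN1, MYLK and LMOD1 lay between 53.7 and 68.2. Without animal 5 the order changed, with RGS5 at 90.1, TAGLN at 79.2, ACTA2 at 63.8 and SMTN at 37.9. MYH11, CNN1, MYLK and LMOD1 then lay between 56.9 and 79.9. These are descriptions of 10 arrays, whose number limits the precision of each SD.

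**Figure D2:**
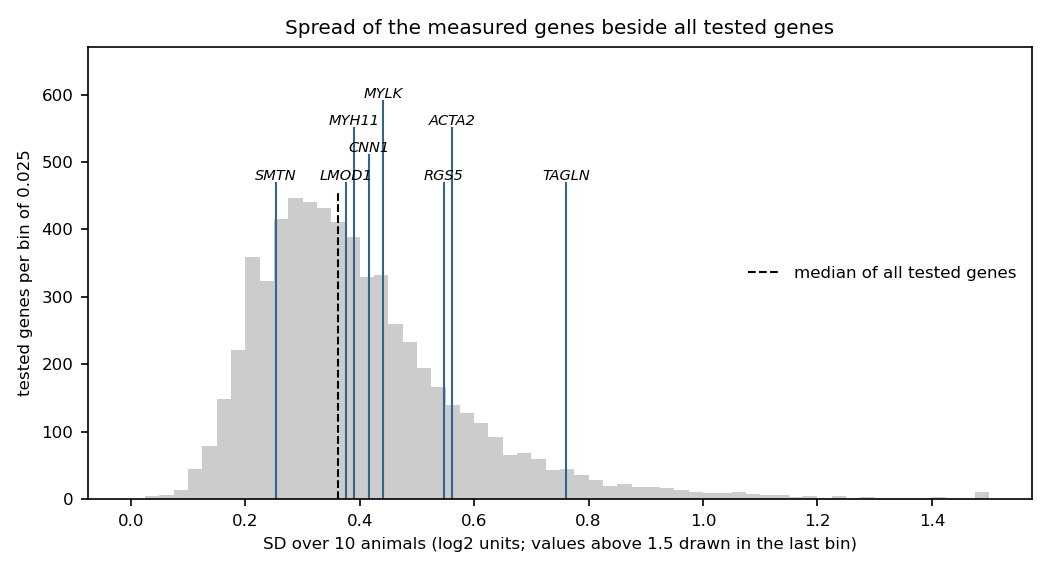
Histogram of the SD over 10 animals of all 6271 tested genes, in log2 units, with a vertical line for each of the 8 measured genes and a dashed line at the median of all genes. The 8 lines run from SMTN at 0.25 to TAGLN at 0.76, and 7 of them stand right of the median of 0.36.

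Some animals were high or low for several of the 8 genes. The shares of all tested genes that were high or low in these animals were not counted, so the counts are a description only. Animal 9 held the highest level of 3 genes (ACTA2, TAGLN and SMTN), was among the 3 highest for 6 of 8, and lay above the mean for 7 of 8, by 0.37 on average. RGS5 was the gene below its mean there, with a deviation of -0.25. Animal 4 also lay above the mean for 7 of 8 genes. At the other end, animals 2 and 8 lay below the mean for 7 of 8, with average deviations of -0.27 and -0.28. In animal 2 the exception was LMOD1 and in animal 8 SMTN. Animal 5 was mixed, with 4 genes above and 4 below the mean: the deviation was -1.80 for TAGLN and -1.27 for ACTA2, 0.60 for LMOD1, and 0.07 and 0.06 for MYH11 and SMTN.

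Whether the genes vary together was asked for each of the 28 pairs. Each measured gene in turn was the covariate of a limma fit over all other tested genes, whose slope is the log2 change per SD of the covariate, with Benjamini-Hochberg adjustment over all 6270. Of the 28 pairs, 21 had r above 0, with a median r of 0.17, and without animal 5 these were 22 and 0.30. Over all tested genes the median r ran from -0.06 with LMOD1 as covariate to 0.06 with ACTA2. Without animal 5 it ran from -0.03 with LMOD1 to 0.02 with MYLK. No share of all tested genes with r above 0 is given here. The pairs share genes and are not independent, so their count and median are a description only. Only ACTA2 with TAGLN passed the test, in both directions. The background was 1.28% of genes past the test with ACTA2 as covariate and 11.3%, or 709 genes, with TAGLN. The TAGLN count was 0 without animal 5, 1 with the poly(A) covariate and 4 by rank correlation. With the other 6 genes as covariate the background was 0%, and 0 pairs passed in limma or by rank correlation. At an unadjusted p below 0.05 in limma, 2 of 7 genes passed with SMTN as covariate (background 1.39%). With MYH11 and MYLK it was 1 of 7 each (3.13% and 3.08%). With ACTA2 and TAGLN it was also 1 of 7 each, against 1482 and 1826 of 6270 genes. With CNN1, LMOD1 and RGS5 it was 0 of 7, against 570, 544 and 509 of 6270. Apart from ACTA2 with TAGLN, these passes were among MYH11, MYLK and SMTN, genes grouped after their values were seen. A pair can pass from both sides.

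TAGLN rose by 0.66 per SD of ACTA2 (SE 0.12, limma adjusted p = 0.0337), and ACTA2 rose by 0.49 per SD of TAGLN (SE 0.098, limma adjusted p = 0.0157). Their r was 0.87 (permutation p = 0.00299) and rho 0.59 (permutation p = 0.0821). The relation depended on animal 5, the lowest for both. Without it r was 0.64 and the adjusted p were 0.899 and 0.793, and without animals 5 and 9 r was 0.47. Once the poly(A) control difference entered as a second covariate, the adjusted p were 0.76 and 0.661. A rank correlation per gene also ended the call, with adjusted p = 0.635 and 0.436. The fit of TAGLN on ACTA2 missed the threshold without animal 4 (adjusted p = 0.0561) and with no filter on dim genes (0.0924). With animal 5 in the fit 80 genes varied with ACTA2, and without it 0 did. Leaving out animal 2 gave 236, animal 6 gave 193, animal 7 gave 36 and animal 4 gave 2.

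MYH11, MYLK and SMTN had the next highest correlations. MYH11 with SMTN had r = 0.68 (permutation p = 0.0281) and rho = 0.62 (permutation p = 0.0602). Without animals 1 and 2, the farthest from the MYH11 median, r was 0.32, so the relation was weak among the remaining animals. MYH11 with MYLK had r = 0.64 (permutation p = 0.0395) and rho = 0.64 (permutation p = 0.053), with r = 0.49 without animals 1 and 2. MYLK with SMTN had r = 0.62 (permutation p = 0.0611) and rho = 0.60 (permutation p = 0.0727). None of the 3 depended on animal 5, without which r was 0.68, 0.65 and 0.62, and none passed over all genes, with limma adjusted p from 0.995 to 1. The second MYLK probe set tracked MYH11 more closely, with r = 0.86 (permutation p = 0.00088), rho = 0.84 (permutation p = 0.00338) and r = 0.79 without animals 2 and 8. It was not the probe set fitted over all genes.

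ACTA2 and MYH11 had similar rank orders over the animals. Over all 10 their r was 0.47 (permutation p = 0.172) but rho was 0.82 (permutation p = 0.00537), and without animal 5, where ACTA2 was low and MYH11 was not, r was 0.86. Without animal 5 ACTA2 ranked 10 of 6274 genes by r with MYH11, and limma adjusted p were still 0.823 and 0.547. ACTA2 with MYLK had r = 0.28 (permutation p = 0.454), rho = 0.54 (permutation p = 0.113) and r = 0.80 without animal 5. Another pair differed between rank and product-moment correlation: TAGLN with CNN1 had r = 0.54 (permutation p = 0.115), rho = 0.79 (permutation p = 0.00877) and r = 0.66 without animal 5. Leaving out animals 5 and 8 raised that r to 0.80.

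LMOD1 and RGS5 stood outside these relations. LMOD1 had r between -0.42 and 0.12 with the other 7 genes, with a median of 0.07. The lowest values, -0.42 with TAGLN and -0.39 with ACTA2, rest on animal 5, without which both were 0.11. RGS5 had r between -0.34 and 0.39, with a median of -0.002. For RGS5 3 of 7 values were above 0. Its r with CNN1 was -0.34 (permutation p = 0.309) and rho -0.49 (permutation p = 0.154).

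**Figure D3:**
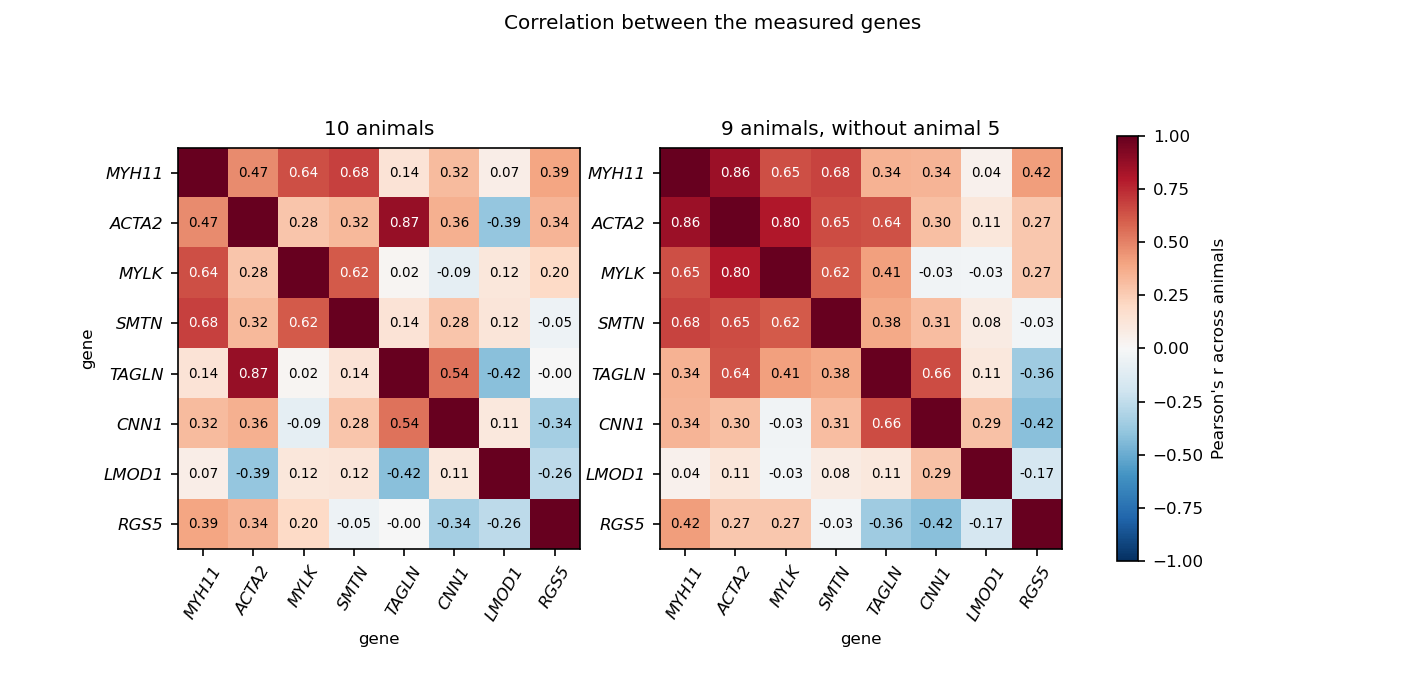
Pearson r between each pair of the 8 measured genes over all 10 animals (left) and without animal 5 (right), on a colour scale from -1 to 1. ACTA2 with TAGLN is the highest at 0.87 over 10 animals and ACTA2 with MYH11 the highest at 0.86 without animal 5, while LMOD1 has r of at most 0.12 with any other gene over 10 animals.

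**Figure D4:**
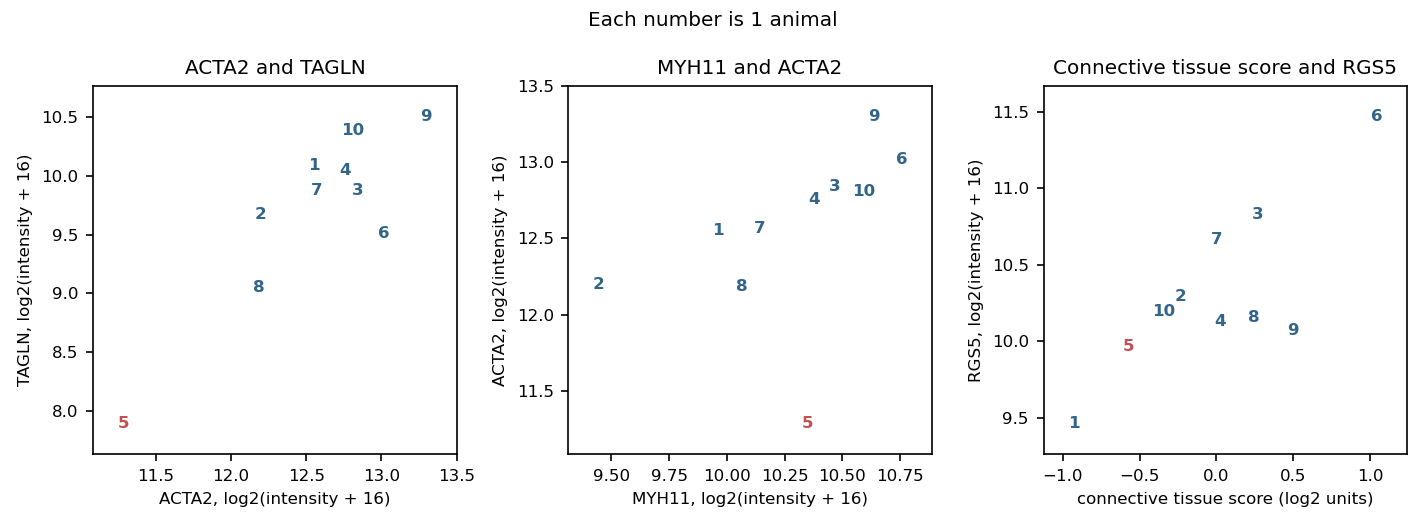
Levels of TAGLN against ACTA2 (left), ACTA2 against MYH11 (middle) and RGS5 against the connective tissue score described below (right), in log2 units, with each point numbered by animal. Animal 5 sits alone at the low end of ACTA2 and TAGLN, and is off the line of the other 9 animals for ACTA2 with MYH11, and RGS5 and the score are both lowest in animal 1 and highest in animal 6.

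Measures of array quality were set beside the genes. ACTA2 fell by 0.44 per SD of the poly(A) control difference (SE 0.11, limma adjusted p = 0.023), and TAGLN fell by 0.62 (SE 0.14, limma adjusted p = 0.0111). These 2 of 8 are read against a background of 11.1% of tested genes that fell and 15.5% that changed in either direction. None of the other 6 genes passed, and LMOD1 had the largest slope among them at 0.20 (adjusted p = 0.258). Without animal 5 the slopes of ACTA2 and TAGLN were -0.02 and -0.01 (adjusted p = 0.995 and 0.996). Both slopes therefore rest on animal 5, and the part of the quality measure in its low ACTA2 and TAGLN was not tested. With the hybridization control level as covariate 0 of 8 genes passed (background 0%).

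Endothelial cells line the vessels that mural cells wrap, and an endothelial score was made for each animal as the mean deviation of 14 endothelial genes from their means. It ran from -0.25 in animal 1 to 0.32 in animal 7. With this score 0 of 8 genes passed in limma (background 0%) or by rank correlation, and 3 (ACTA2, LMOD1 and RGS5) reached an unadjusted p below 0.05, against 6.09% of all tested genes. Without animal 5 none of the 3 did, at p = 0.108, 0.0663 and 0.0637 in limma over all genes, and MYH11 was the 1 gene below 0.05. Adding the poly(A) control difference to the model left 0. Of the 8, 7 had r above 0, with a median of 0.38, against 0.04 over all tested genes. ACTA2 had the largest r above 0, at 0.63 (permutation p = 0.0425; rho = 0.67, permutation p = 0.0388), with a slope of 0.35 (SE 0.14, limma adjusted p = 0.785) and r = 0.86 without animals 1 and 7. RGS5 had r = 0.59 (permutation p = 0.0693), rho = 0.61 (permutation p = 0.0672) and r = 0.45 without those animals. LMOD1 was the gene with r below 0, at -0.70 (permutation p = 0.0165; rho = -0.54, permutation p = 0.113), with a slope of -0.26 (SE 0.10, limma adjusted p = 0.763) and r = -0.63 without them.

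RGS5 had the highest Pearson r of the 8 genes with connective tissue genes over the 10 animals, though not the highest rho. The connective tissue score, from 14 collagen, proteoglycan and other matrix and fibroblast genes, ran from -0.93 in animal 1 to 1.04 in animal 6, the same animals that held the lowest and highest RGS5. The slope of RGS5 on it was 0.44 (SE 0.11, limma adjusted p = 0.19) with r = 0.80 (permutation p = 0.00636; rho = 0.56, permutation p = 0.0969). Without animals 1 and 6 r was 0.29, so the relation was weak among the remaining animals. ACTA2, TAGLN and SMTN then had higher r, at 0.71, 0.52 and 0.50. Of the 14 connective tissue genes 14 had r above 0 with RGS5, from THY1 at 0.14 to COL1A2 at 0.85, with a median of 0.61 against 0.03 over all tested genes, and 0 passed the test. ACTA2, which activated fibroblasts also make, had a slope of 0.31 (SE 0.15, limma adjusted p = 0.596), r = 0.56 (permutation p = 0.0982) and rho = 0.67 (permutation p = 0.0399). MYH11 had rho = 0.62 (permutation p = 0.0607). With this score 0 of 8 genes passed in limma or by Spearman, with a background of 0.0959%, and 1 had an unadjusted p below 0.05, against 8.36%.

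Against the adipocyte score, from 8 fat cell genes, MYLK had the largest r. The score ran from -0.88 in animal 2 to 1.28 in animal 9. MYLK had r = 0.70 (permutation p = 0.0236), rho = 0.70 (permutation p = 0.0303) and r = 0.55 without animals 2 and 9, with a slope of 0.31 (SE 0.11, limma adjusted p = 0.831). ACTA2 followed with r = 0.56 (permutation p = 0.0897), rho = 0.60 (permutation p = 0.073) and r = 0.33 without those animals. With this score too 0 of 8 genes passed in limma or by Spearman, with a background of 0.016%, and 1 had an unadjusted p below 0.05, against 4.76%. Across the 8 genes and 3 scores, no relation passed over all genes. In a piece of bulk muscle, fewer cells of a type and less RNA per cell cannot be told apart.

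**Figure D5:**
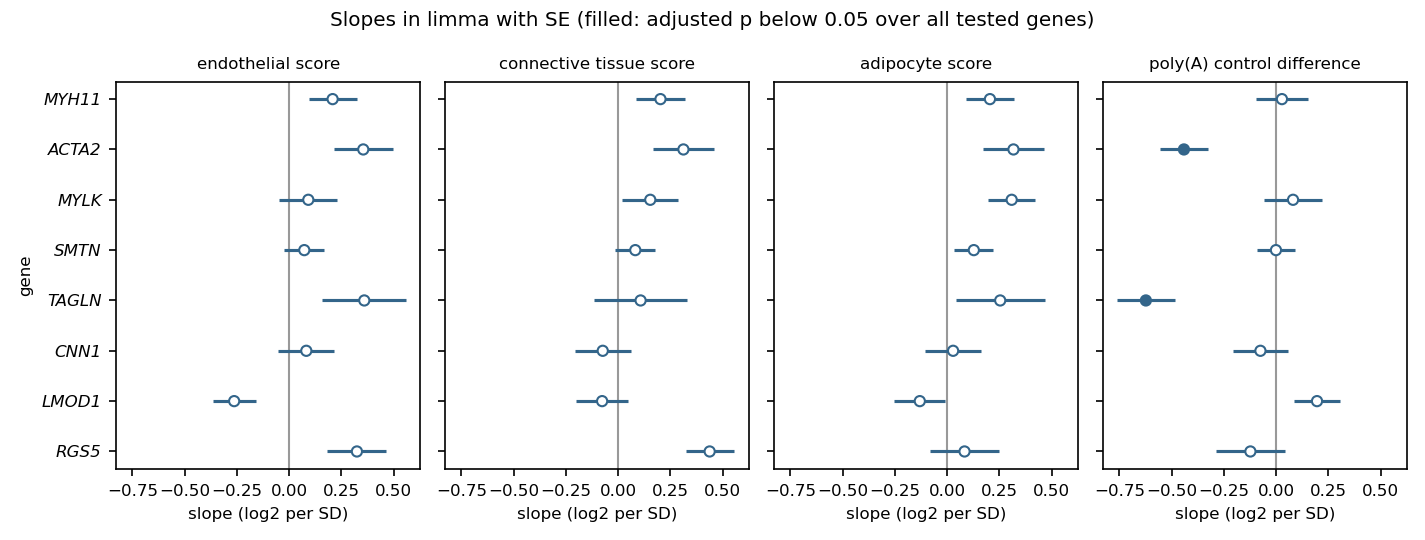
Slope of each measured gene, as log2 change per SD of the covariate, on the endothelial, connective tissue and adipocyte scores and the poly(A) control difference, with bars of 1 SE and filled points for adjusted p below 0.05. The filled points are ACTA2 at -0.44 and TAGLN at -0.62 on the poly(A) control difference; RGS5 has the largest slope on the connective tissue score, 0.44.

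Other genes of the contractile apparatus were described from a list of 12 partners, of which 8 were measured and tested. With ACTA2 as covariate 1 of the 8 rose, the nonmuscle and smooth muscle myosin light chain MYL6, by 0.48 (limma adjusted p = 0.0489, r = 0.85), and 0 fell, where 0.909% of all tested genes rose. The median r of the 8 was 0.63, against 0.06 over all tested genes. Without animal 5 the median r was 0.30 and no gene passed with ACTA2. Markers of other cells also had medians above 0 with ACTA2: 0.59 for 6 leukocyte genes (0.53 without animal 5), of which C1QA rose (limma adjusted p = 0.0396), 0.46 for 8 adipocyte genes, and 0.37 for 14 connective tissue genes, of which SPARC rose (limma adjusted p = 0.0348). MYL6 also fell by 0.54 per SD of the poly(A) control difference (limma adjusted p = 0.00089, r = -0.96), as did VCL by 0.39 (limma adjusted p = 0.033), and the part of that measure, or of the other cells, in the relation with ACTA2 was not tested. With TAGLN as covariate 2 of the 8, MYL6 and FLNA, rose (limma adjusted p = 0.0241 and 0.046). There 11.3% of all tested genes passed in either direction, and 0 genes passed without animal 5. With ACTA2, TPM1, a tropomyosin, had r = 0.87 (limma adjusted p = 0.0546). VCL, the adhesion protein vinculin, had r = 0.78 with ACTA2 (0.0674), and FLNA, the actin cross-linker filamin A, had r = 0.78 with ACTA2 (0.0961). TPM2, the brightest of the list at 15.61 ± 0.14 (SD, n = 10) and also a skeletal muscle tropomyosin, had r = -0.21 with ACTA2. With MYH11 or RGS5 as covariate 0 of these 8 passed, with median r of 0.16 and 0.13.

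Of 15 genes listed for setting the tone of smooth muscle, 10 were measured and 9 tested, and 0 passed with MYH11, ACTA2 or RGS5. PPP1CB, the catalytic subunit of myosin phosphatase and the brightest of the list at 14.02 ± 0.31 (SD, n = 10), had r = -0.92 with ACTA2 (limma adjusted p = 0.0587), and fell by 0.30 per SD of TAGLN (limma adjusted p = 0.02, against the background of 11.3%). Without animal 5 the adjusted p with TAGLN was 0.793. PPP1CB rose with the poly(A) control difference (r = 0.85, limma adjusted p = 0.0284). GUCY1B1, a subunit of the nitric oxide receptor guanylate cyclase, had r = 0.60 with MYH11, 0.63 with ACTA2 and 0.72 with RGS5, with adjusted p of 1, 0.161 and 0.505. It was the highest of the list with each of these. The other listed subunit, GUCY1A1, had r = -0.10, -0.16 and 0.54 with them. The median r of the 9 tested genes was 0.13, 0.08 and 0.25, against -0.02, 0.06 and 0.03 over all tested genes. Of the 8 transcription regulators listed, 3 were tested and 0 passed. KLF4, a repressor of contractile genes in mouse smooth muscle, was the brightest at 11.58 ± 0.69. Its r was -0.40 with ACTA2, -0.42 with TAGLN, -0.01 with MYH11, -0.15 with RGS5 and 0.85 with LMOD1. MEF2C had r = -0.61 with MYH11, -0.17 with ACTA2, -0.82 with RGS5 and -0.10 with LMOD1. The median r of the 3 genes with ACTA2 was -0.40, and -0.20 without animal 5. SRF, which drives contractile genes, had r = -0.41 with ACTA2 and -0.73 with RGS5 (adjusted p = 0.432 and 0.505).

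Of 9 further pericyte genes 4 were tested and 0 passed with MYH11, ACTA2 or RGS5. MCAM, an adhesion molecule of mural and endothelial cells and the brightest at 8.47 ± 0.72 (SD, n = 10), had r = 0.76 with MYH11, 0.64 with ACTA2 and 0.43 with RGS5. PDGFRB, the receptor that recruits pericytes, had r = 0.58 with MYH11 and 0.47 with RGS5 but -0.16 with ACTA2. Of the 4 genes, 2 had r above 0 with MYH11, 2 with ACTA2 and 3 with RGS5. Their median r was 0.23, 0.20 and 0.22, against -0.02, 0.06 and 0.03 over all tested genes. NDUFA4L2 was the lowest with each, at -0.31, -0.34 and -0.24. In place of the unmeasured NOTCH3, 5 of 11 other Notch pathway genes were tested, and 0 passed with the 3 genes. RBPJ, the DNA-binding partner of Notch, was the brightest at 9.34 ± 0.48 and had r = 0.80 with ACTA2 (limma adjusted p = 0.0641), and it fell by 0.38 per SD of the poly(A) control difference (limma adjusted p = 0.0226). The ligand JAG1 and the target HEY1 had r = 0.54 and 0.55 with RGS5 and -0.23 and -0.25 with ACTA2.

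The genes whose pattern over the 10 animals was most like that of a vessel wall gene were taken by r among all tested genes. For MYH11 these were CLDN15 (r = 0.93), RPS6KA1 (0.86), MMP2 (0.86), TMEM184C (0.82) and GPX2 (0.81), and the lowest were TNFRSF21 (-0.87), SEC31B (-0.81) and CDC42EP2 (-0.78). With MYH11 0 of 6270 genes passed in limma and 2 by rank correlation, and 196 had an unadjusted p below 0.05. For ACTA2 the highest were UCP3 (0.97), PPIB (0.96), EEF1A1 (0.96), C3H1orf50 (0.96) and CLTC (0.94), and the lowest IK (-0.94), CACNG6 (-0.93) and ING1 (-0.93). All but IK passed, UCP3, the mitochondrial uncoupling protein of muscle, with a slope of 0.60 (limma adjusted p = 0.0119). Without animal 5 their r lay between 0.85 and 0.91 at the top and between -0.84 and -0.80 at the bottom, with adjusted p of at least 0.547. For RGS5 the highest were IFT52 (0.93), NDUFS4 (0.92), APOOL (0.91), CTSZ (0.89) and ATP5PF (0.89), and the lowest SRM (-0.93), TSPAN18 (-0.91) and DAXX (-0.89). None of these passed, with 0 of 6270 genes past the limma test, 509 (8.12%) at an unadjusted p below 0.05 and 1 past the rank correlation.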

How the data were processed

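RNA of 10 muscle samples was measured on 10 single-colour arrays. Per the labels' protocols, total RNA was taken with Trizol, poly(A) RNA with oligotex resin, and biotin labelling followed Affymetrix. Each deposited value is the linear intensity of a probe set on an array, scaled by the authors so that the mean without the lowest and highest 2% of probe sets was 500.177 to 500.203; the software and its version are not given in the sources used here. From these, log2(intensity + 16) was computed and quantile normalized over 24016 probe sets, leaving out 112 controls. The brightest probe set of 1 symbol stood for a gene, and genes with a mean above 6.98 were tested. Symbols came from the platform annotation, and the RefSeq table for ARS-UCD2.0 changed 0 of them.

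Slopes were fitted with limma 3.58.1 in R 4.3.3, with a gene, a list score, the poly(A) control 3' minus 5' difference or the hybridization control level as covariate in SD units. A list gene was fitted against its score without it. Adjusted p are Benjamini-Hochberg over all tested genes, with a threshold of 0.05. Permutation tests of r and rho were two-sided with 100000 resamples. No p was adjusted over the genes described here alone. The fits were tested on simulated data. The genes and lists were chosen with earlier results of these data known. Genes outside them were named by rule: the 5 highest and 3 lowest r in the fits on MYH11, ACTA2, RGS5 and the 3 scores, and, from the contractile partner, contraction control, transcription, pericyte and Notch lists, the brightest gene and those past a test; others named, cell type markers included, were chosen after their values were seen. Alternatives were the deposited scaling, a pseudocount of 1 or 64, no filter or one at the 75th percentile, averaging the probe sets of a gene, rank correlation, adding the poly(A) control difference to the model, and each animal left out. For the pairs of genes, the poly(A) covariate was added after seeing the data. The number of arrays limits the precision.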

Additional observations from a re-analysis of the deposited data

Results flagged for a closer look

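In animal 5 the poly(A) control RNAs had a 3' minus 5' difference of 2.801 log2 units, where the other 9 animals had 1.09 to 1.38, far enough from the rest to pass Dixon's criterion for a single outlying value. Of 14 measures examined this was the 1 that passed, and chance alone flags about 1 in 20 groups. Among the 8 genes the gap of animal 5 over the whole range was 0.446 for ACTA2 and 0.441 for TAGLN, and that of animal 10 was 0.444 for CNN1, each under the critical value for 10 samples.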

How the results depend on the processing

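A chosen subset of 17 slopes of measured genes was followed over 18 alternatives. They kept their direction in every case, 298 with their call unchanged and 8 no longer past the threshold, all of these between ACTA2 and TAGLN. The slopes outside that pair were past the threshold in no setting. Slopes outside the subset could change direction. Without animal 5 that of LMOD1 on ACTA2 went from -0.15 to 0.04. That of TAGLN on the connective tissue score went from 0.11 to -0.13. The pair ACTA2 with TAGLN was past the test under every alternative except Spearman, the poly(A) control covariate and leaving out animal 5, each of which left 0 pairs; leaving out 1 animal gave 0 to 1. The median SD was 0.41 to 0.45 and the pairs with r above 0 numbered 20 to 23 with 1 animal left out. The 80 genes past the test with ACTA2 became 179 with the deposited scaling, 0 with no filter, 393 with the 75th percentile filter, 191 with a pseudocount of 64, 34 with the mean of probe sets, 2 by Spearman and 0 with the poly(A) covariate, and 0 to 236 with 1 animal left out. The 6 with the connective tissue score became 0 with no filter, 2 with the 75th percentile filter and 1 with the mean of probe sets, and 0 to 12 with 1 animal left out: 0 without animal 2, 4, 6, 7, 8 or 9 and 12 without animal 5. The 1 with the adipocyte score became 0 with no filter, the 75th percentile filter and the poly(A) covariate, 2 with a pseudocount of 64 and 3 by Spearman, and 0 to 2 with 1 animal left out. Spearman called 2 genes with MYH11, 1 with RGS5 and 2 with the endothelial score, the poly(A) covariate gave 1 with RGS5, and leaving out animal 1 gave 1 with the endothelial score, where the counts were 0. The cause of these changes was not tested. No paired analysis was possible because the samples form 1 group.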

Other observations

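Genes related to the measured ones were examined after the data were seen. With ACTA2, the skeletal actin ACTA1 had r = 0.24, the cardiac actin ACTC1 0.50, the cytoplasmic actin ACTB -0.04 and ACTG1 0.54, and none passed the test over all genes (limma adjusted p from 0.236 to 0.952). Without animal 5 these were 0.56, 0.49, 0.44 and 0.11. TAGLN2, the relative of TAGLN made outside smooth muscle, had r = 0.52 with it (adjusted p = 0.227), and 0.61 without animal 5. CNN2 and CNN3 had r = 0.47 and 0.28 with CNN1 (adjusted p = 0.652 and 0.806). MYLK2, the skeletal muscle kinase of the family, had r = -0.39 with MYLK (adjusted p = 0.995).

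The genes outside the set that followed the cell type scores most closely were these. With the endothelial score the highest r were those of PGRMC1 (0.95), EEF1D (0.91), STX17 (0.89), the basement membrane collagen COL4A1 (0.89) and the transcription factor MEOX2 (0.88). The lowest were those of MID1IP1 (-0.93), ZNF362 (-0.89) and SEL1L (-0.88). With the connective tissue score IGFBP4 (0.97), GLT8D2 (0.95), TGFBI (0.95), LAMB1 (0.93) and MRPS30 (0.93) were highest and COX7A1 (-0.91), NHEJ1 (-0.90) and PKNOX1 (-0.89) lowest. With the adipocyte score NMRK2 (0.94), G0S2 (0.93), SLC25A5 (0.89), RTN4IP1 (0.88) and PAM (0.87) were highest and SERTAD1 (-0.85), HMGN4 (-0.84) and FAM118A (-0.84) lowest. Of these genes, IGFBP4, TGFBI and G0S2 passed the test over all genes, with limma adjusted p of 0.0321, 0.0296 and 0.0161. Among the cell type markers themselves, COL3A1 and FN1 rose with the connective tissue score made without them (limma adjusted p = 0.0296 for both). DCN, 1 of 14 connective tissue genes, fell with the poly(A) control difference (limma adjusted p = 0.024), where 11.1% of tested genes fell. The endothelial genes TIE1 and ENG, 2 of 14, rose with TAGLN (limma adjusted p = 0.0317 and 0.0474). There 11.3% of tested genes passed in either direction, and 0 passed without animal 5. Of the 14 endothelial genes 9 had r above 0 with TAGLN. Their median was 0.14, against 0.06 over all tested genes, and FLT1 was lowest at -0.44.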
